A study of Mus musculus with 16 samples.

Results

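The 33 genes described here break down sugar or answer low oxygen, and their RNA was followed across 16 sequenced libraries of macrophages grown from mouse bone marrow. They were named as a list, 24 of them acting in glycolysis, in lactate export or at pyruvate entry into mitochondria, and 9 being other genes of the hypoxia response. Each symbol was matched to an Ensembl identifier among the 54532 in the deposited tables. All 33 were found, and all 33 were among the 11654 genes with at least 1 FPKM (fragments counted, scaled by exon length and library size) in at least 4 libraries. Marrow of FVB/N mice was grown for several days in high-glucose, high-pyruvate medium with L929-conditioned medium, which supplies the macrophage growth factor. The cells then received either the DMSO vehicle or 100 nM dexamethasone, a synthetic glucocorticoid, for 24 h. There were 4 libraries in each of 4 groups: wild-type vehicle, wild-type dexamethasone, and both treatments with the genotype FOXO3-/-. FOXO3 is a forkhead transcription factor that acts downstream of insulin and AKT signalling, and the series asks how it bears on glucocorticoid receptor signalling. The sources used here give neither the age and sex of the mice, nor the oxygen level of the cultures, nor whether libraries came from separate mice. The p-values therefore refer to variation from library to library.

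Glycolysis splits glucose into pyruvate in the cytosol. An upper stage spends ATP, through hexokinase and phosphofructokinase, and a lower stage from triose phosphates to pyruvate pays it back; lactate dehydrogenase then regenerates NAD+. Hypoxia-inducible factors (HIFs) raise most of these enzymes when prolyl hydroxylases, which need oxygen, no longer mark the HIF alpha subunit for destruction. Macrophages lean on this pathway when they are activated, and the same factors raise genes for vessel growth, pH control and removal of mitochondria.

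The DNA just before the start of 7 of these genes is shown first, because most of their promoters carry the short core that HIFs recognise although the genes moved in opposite directions with dexamethasone. The sequences are the 250 bases before a RefSeq start on GRCm38.p6, written 5′ to 3′ on the strand of the gene, and capitals mark ACGTG or GCGTG on either strand. Pgk1, phosphoglycerate kinase, lies at chrX:106186850-106187099 (plus strand). Pgam1, phosphoglycerate mutase, lies at chr19:41911621-41911870 (plus strand). Ldha, lactate dehydrogenase A, lies at chr7:46845554-46845803 (plus strand). Tpi1, triosephosphate isomerase, lies at chr6:124814159-124814408 (minus strand). Hk3, the hexokinase found mainly in myeloid cells, lies at chr13:55021386-55021635 (minus strand). These 5 genes fell with dexamethasone. Bnip3, a receptor for mitophagy, lies at chr7:138909507-138909756 (minus strand), and Pfkfb3, which makes the sugar phosphate that activates phosphofructokinase, has an internal start at chr2:11502091-11502340 (minus strand). Both of these rose.
Pgk1: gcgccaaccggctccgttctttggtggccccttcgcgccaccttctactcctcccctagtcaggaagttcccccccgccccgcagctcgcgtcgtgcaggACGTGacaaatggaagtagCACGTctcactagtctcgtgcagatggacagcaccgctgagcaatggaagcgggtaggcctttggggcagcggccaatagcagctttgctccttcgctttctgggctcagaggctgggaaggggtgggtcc
Pgam1: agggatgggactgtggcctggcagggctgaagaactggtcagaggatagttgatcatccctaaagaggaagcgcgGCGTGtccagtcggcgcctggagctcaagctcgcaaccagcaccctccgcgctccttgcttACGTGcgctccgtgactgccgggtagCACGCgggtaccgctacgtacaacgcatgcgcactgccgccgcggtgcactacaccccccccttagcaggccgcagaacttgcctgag
Ldha: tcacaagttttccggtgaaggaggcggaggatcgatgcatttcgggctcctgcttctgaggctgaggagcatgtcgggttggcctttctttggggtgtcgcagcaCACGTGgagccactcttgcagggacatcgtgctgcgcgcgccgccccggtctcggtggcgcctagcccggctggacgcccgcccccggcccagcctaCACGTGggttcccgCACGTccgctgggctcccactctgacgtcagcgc
Tpi1: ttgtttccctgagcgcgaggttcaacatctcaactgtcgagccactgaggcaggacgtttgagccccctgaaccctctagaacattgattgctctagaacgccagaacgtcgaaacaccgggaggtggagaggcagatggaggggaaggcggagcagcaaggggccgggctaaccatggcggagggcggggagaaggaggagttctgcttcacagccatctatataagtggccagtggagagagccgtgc
Hk3: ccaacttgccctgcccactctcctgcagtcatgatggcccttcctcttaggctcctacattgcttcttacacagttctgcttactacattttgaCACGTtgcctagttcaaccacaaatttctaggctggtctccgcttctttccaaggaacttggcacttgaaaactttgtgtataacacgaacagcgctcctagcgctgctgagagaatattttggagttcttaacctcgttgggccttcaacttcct
Bnip3: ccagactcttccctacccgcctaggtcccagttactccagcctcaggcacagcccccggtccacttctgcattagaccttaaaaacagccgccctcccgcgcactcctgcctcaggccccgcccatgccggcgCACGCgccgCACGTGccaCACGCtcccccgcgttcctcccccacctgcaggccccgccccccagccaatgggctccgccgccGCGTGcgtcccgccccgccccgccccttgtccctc
Pfkfb3: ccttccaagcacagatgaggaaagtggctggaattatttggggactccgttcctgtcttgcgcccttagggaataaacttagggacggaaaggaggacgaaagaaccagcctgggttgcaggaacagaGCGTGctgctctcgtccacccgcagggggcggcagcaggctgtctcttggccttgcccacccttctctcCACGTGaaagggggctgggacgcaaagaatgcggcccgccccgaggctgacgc
RefSeq windows were found for 32 of the 33 genes, 46 windows in all. Some windows of the same gene overlap, as in Aldoa, Eno1 and Pfkm, so 1 site can count more than once. ACGTG or GCGTG stood in 37 of the 46 windows (80.4%), in 56.4% of the 10922 windows of genes that passed the filter, and in 38.6% of all 32851 windows. The median GC content of the 46 windows was 61.0%, that of the windows of filtered genes 60.0% and that of all windows 52.4%. The palindrome CACGTG, which holds ACGTG on both strands and is also read by E-box factors such as MYC, stood in 6 of the 46 windows (13.0%), in 8.64% of windows of filtered genes and in 6.02% of all. AGAACA, one arm of the site of the glucocorticoid receptor, stood in 9 of 46 windows (19.6%), in 10.7% of windows of filtered genes and in 16.1% of all, and the forkhead motif GTAAACA in 1 of 46 (2.17%), in 2.11% of windows of filtered genes and in 3.17% of all. Counted by gene, ACGTG or GCGTG stood in 29 of the 32 genes, CACGTG in 6, AGAACA in 8 and GTAAACA in 1. Shares by gene were not computed for the other genes. These are matches of letters in a short window, and the gene-level values do not show which start was used. Counted on both strands, cores numbered 0 to 5 in the 5 genes that fell, with none in Tpi1, and 5 and 3 in Bnip3 and Pfkfb3. The table holds a second window for Ldha and another for Pfkfb3, each with 1 core; for these genes the window with more cores is the one shown.

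Macrophage markers were present in every library: 10 of 10 passed the filter and their summed level lay between 9960 and 15847 FPKM. Most of that sum was Lyz2 (7764 to 12754 FPKM), while Fcgr1 ranged down to 5.47 and Itgam to 8.54 FPKM. Erythroid, lymphoid and mast cell markers summed to under 1 FPKM in every library. Fibroblast and stroma markers varied most, with 10 of 12 passing the filter, Lum and Thy1 listed at 0 in at least 1 library, and a sum of 34.1 to 630.6 FPKM with vehicle and 79.1 to 1306 FPKM with dexamethasone in wild type. In the libraries labelled knockout the same sum ran from 3.52 to 462 and from 8.28 to 113 FPKM. Col1a1, the main collagen of fibroblasts, lay under 50 FPKM in 1, 1, 3 and 4 libraries of wild-type vehicle, wild-type dexamethasone, labelled knockout vehicle and labelled knockout dexamethasone. In each of 3 groups 1 library lay apart from the others in Col1a1: wild-type vehicle replicate 3, wild-type dexamethasone replicate 4 and labelled knockout vehicle replicate 4. Foxo3 itself was not lower in the libraries labelled knockout: it stood at 24.7 ± 1.72 FPKM (SD, n = 4) in wild type and 23.8 ± 0.635 in labelled knockout with vehicle (exact permutation test, two-sided, p = 0.371). With dexamethasone it stood at 23.2 ± 1.07 and 24.5 ± 1.44 FPKM (exact p = 0.171, where 0.0286 is the smallest possible). A gene-level FPKM does not show whether part of the gene is missing, so the genotype is given below as the label only. Libraries held 16886745 to 20584573 recovered reads. The read totals that the FPKM values were scaled to were 16453945 to 19857067, so 1 FPKM of a gene with 2 kb of exons stood for 32.9 to 39.7 reads. Recovered reads over that total were 1.07 to 1.13 in wild-type vehicle and 0.98 to 1.11 in wild-type dexamethasone. In labelled knockout they were 1.06 to 1.24 with vehicle and 1.03 to 1.04 with dexamethasone. The cause was not tested.

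Dexamethasone lowered most enzymes of the lower stage of glycolysis in both genotypes, and it raised Pfkfb3 and Bnip3, the latter in labelled knockout with a call lost under 6 of 27 alternatives. In wild type 11 of the 33 genes fell and 4 rose at an adjusted p under 0.05 (limma on log2(FPKM + 1), Benjamini-Hochberg over all genes tested). Of all genes tested 18.2% fell and 11.9% rose. The 4 that rose were Pfkfb3, Pdk3, Bnip3 and Egln1. In the libraries labelled knockout 18 of the 33 fell and 2 rose, against 24.1% and 15.0% of all genes tested. Differences are given below on the log2(FPKM + 1) scale with their SE. The median difference of the 33 genes was -0.17 in wild type and -0.44 in labelled knockout, and that of all genes tested -0.02 and -0.05. Of the 24 glycolysis genes 10 fell and 2 rose in wild type, and 16 fell and 1 rose in labelled knockout; of the 9 other hypoxia genes 1 fell and 2 rose, and 2 fell and 1 rose. Between both genotypes 12 of the 33 were called in the same direction, 3 were called in wild type and 8 in labelled knockout without a call in the other, 10 in neither and none in opposite directions. Of all 11654 genes tested 2697 (23.1%) were called in the same direction in both, 807 in wild type and 1861 in labelled knockout without a call in the other, and 6285 in neither. Whether those responses differ between genotypes is taken up with the interaction below. The macrophage markers moved as well: of 10, 7 fell and 2 rose in wild type and 6 fell and 3 rose in labelled knockout, and their part in these differences was not tested. Of all calls in wild type 39.5% were higher, and 48.4% or 47.2% after median-ratio or quantile scaling. In labelled knockout these shares were 38.4%, 48.4% and 51.1%. In bulk RNA, fewer cells of a type and less RNA per cell cannot be told apart.

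**Figure D1:**
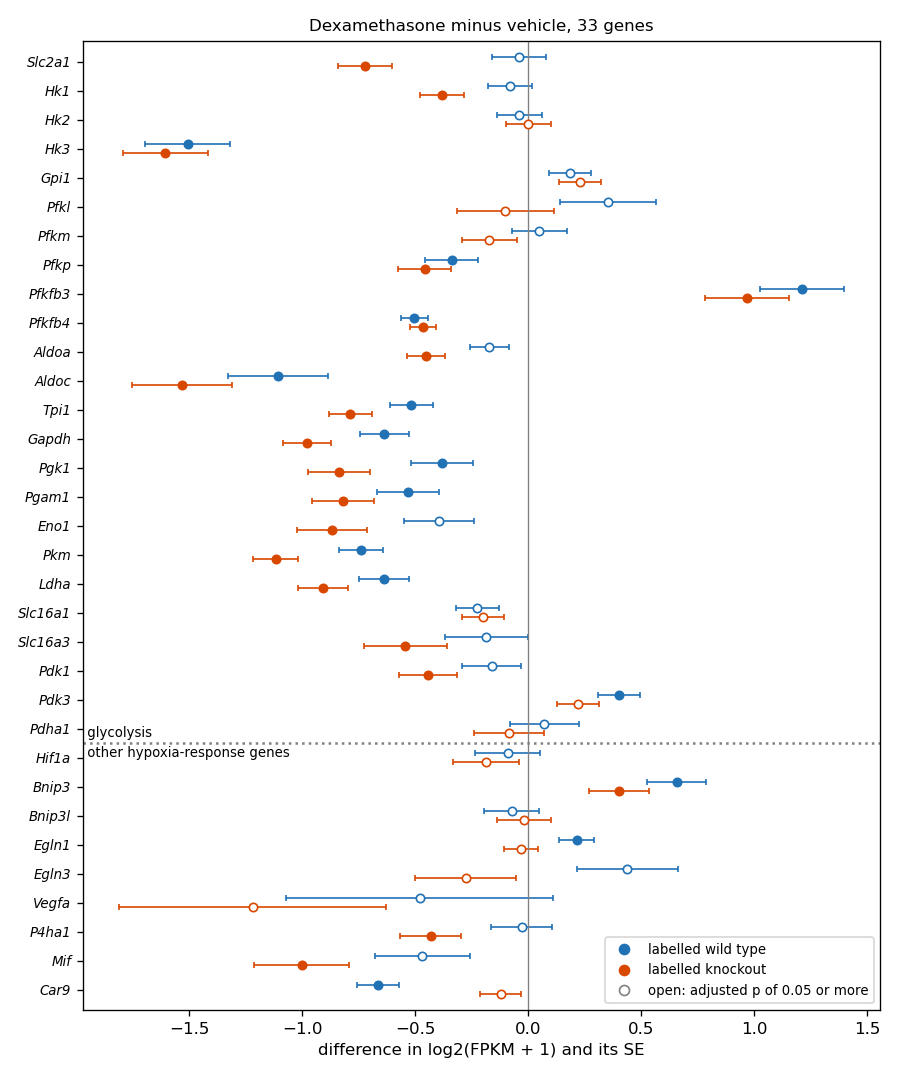
Difference between dexamethasone and vehicle in log2(FPKM + 1) for each of the 33 genes, with its SE, in wild type (blue) and in libraries labelled knockout (orange); filled points passed an adjusted p of 0.05. The 7 enzymes from Tpi1 to Ldha all lie left of 0 in both genotypes, while Pfkfb3 and Bnip3 lie right of 0 in both.

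Glucose entry was first. Slc2a1, the GLUT1 glucose transporter (ENSMUSG00000028645, GRCm38 chromosome 4, 119108711 to 119137983), stood with vehicle at 17.5, 13.97, 15.3 and 15.9 FPKM in wild type and at 12.8, 13.7, 12.2 and 12.03 in labelled knockout. With dexamethasone it stood at 14.98, 17.7, 17.8 and 11.2 in wild type and at 6.46, 7.17, 7.46 and 8.12 in labelled knockout. The 4 labelled knockout libraries with dexamethasone were lower than the other 12. Slc2a1 fell in labelled knockout (-0.72 ± 0.12, adjusted p = 0.000256), and its difference in wild type was -0.04 ± 0.12 (adjusted p = 0.831). Of the other glucose transporters, Slc2a6 of lysosomes fell in both genotypes, with 12.5 ± 2.503 FPKM before and 4.04 ± 1.24 after in wild type, against 13.9 ± 0.736 and 5.54 ± 0.399 in labelled knockout (SD, n = 4). Slc2a3, the GLUT3 transporter, rose in both at low levels, from 1.03 ± 0.117 to 3.17 ± 0.552 and from 1.56 ± 0.287 to 4.56 ± 0.766 FPKM.

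The hexokinases trap glucose in the cell, and here the family was mostly Hk3. Hk3 (ENSMUSG00000025877, GRCm38 chromosome 13, 55005985 to 55021385) stood with vehicle at 176, 151, 211 and 171 FPKM in wild type and 200.5, 230.2, 186 and 116 in labelled knockout. With dexamethasone it stood at 51.6, 55.96, 59.4 and 81.8 and at 52.6, 60.6, 66.3 and 52.3 FPKM. Every dexamethasone library lay below every vehicle library of its genotype. Hk3 fell in wild type (-1.51 ± 0.19, adjusted p = 3.61e-05) and in labelled knockout (-1.61 ± 0.19, adjusted p = 1.35e-05). Hk1, the widely expressed form bound to mitochondria, had means of 16.9, 15.95, 17.9 and 13.6 FPKM in wild-type vehicle, wild-type dexamethasone, labelled knockout vehicle and labelled knockout dexamethasone, and fell in labelled knockout (-0.38 ± 0.097, adjusted p = 0.00644). Hk2, the form induced by insulin and HIFs, showed differences of -0.04 ± 0.10 (adjusted p = 0.799) and 0.0015 ± 0.10 (adjusted p = 0.992) with dexamethasone. On the FPKM scale Hk3 made up 88.0% ± 2.21 (SD, n = 4) of the 3 hexokinases in wild-type vehicle and 72.9% ± 5.16 with dexamethasone. In labelled knockout the share was 86.7% ± 3.74 and 72.1% ± 3.19. The summed hexokinase level was 201 ± 23.3, 84.7 ± 11.9, 209.7 ± 48.7 and 80.2 ± 6.87 FPKM in the same order of groups as above. The lowest vehicle share of Hk3 was 81.1% and the highest dexamethasone share 80.4%, in wild-type dexamethasone replicate 4.

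**Figure D2:**
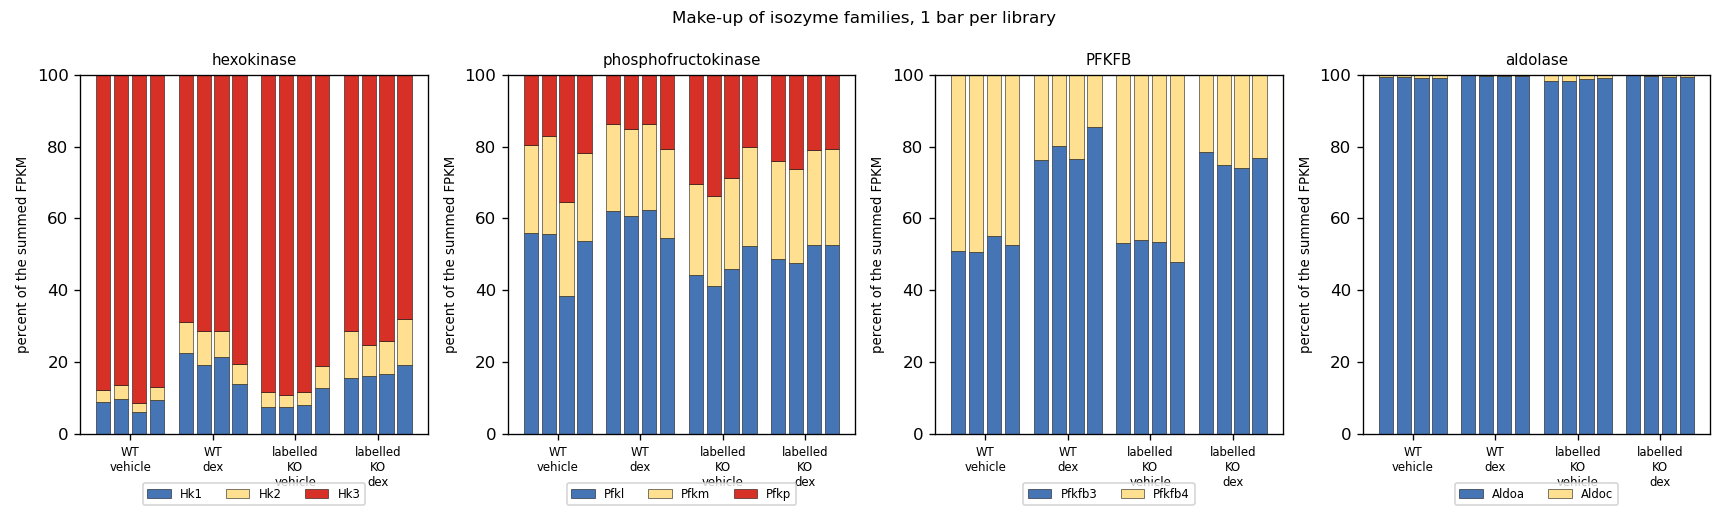
Make-up of 4 isozyme families, as the percent of the family's summed FPKM, with 1 bar per library and 4 libraries per group. The Hk3 part shrinks with dexamethasone in both genotypes (mean 88.0% to 72.9% and 86.7% to 72.1%), and Pfkfb3 grows against Pfkfb4 (52.3% to 79.6% and 52.2% to 76.0%).

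Control of phosphofructokinase, the committed step, split in direction. Pfkfb3 (ENSMUSG00000026773, GRCm38 chromosome 2, 11471433 to 11554077) stood with vehicle at 9.91, 9.49, 11.5 and 10.7 FPKM in wild type and 12.7, 13.2, 12.6 and 10.04 in labelled knockout. With dexamethasone the values were 19.8, 24.7, 20.2 and 41.7 and 28.2, 24.7, 19.7 and 26.6 FPKM. All 8 dexamethasone libraries were above all 8 vehicle libraries, and the highest, 41.7 FPKM, was wild-type dexamethasone replicate 4. Pfkfb3 rose in wild type (1.21 ± 0.19, adjusted p = 0.000213) and in labelled knockout (0.97 ± 0.19, adjusted p = 0.000874). Pfkfb4, a relative with the same pair of opposing activities, stood at 9.49, 9.23, 9.37 and 9.71 FPKM with vehicle and 6.13, 6.13, 6.14 and 7.13 with dexamethasone in wild type. In labelled knockout it stood at 11.2, 11.2, 10.97 and 10.9 and 7.69, 8.31, 6.93 and 8.05. It fell in wild type (-0.50 ± 0.058, adjusted p = 1.85e-05) and in labelled knockout (-0.46 ± 0.058, adjusted p = 2.35e-05). The ratio of Pfkfb3 to Pfkfb4 was 1.10 ± 0.090 and 4.10 ± 1.22 in wild type, and 1.10 ± 0.117 and 3.20 ± 0.367 in labelled knockout (SD, n = 4), with no overlap between treatments. Of the phosphofructokinases themselves, Pfkp, the platelet form, fell in wild type (-0.34 ± 0.12, adjusted p = 0.0396) and in labelled knockout (-0.46 ± 0.12, adjusted p = 0.00609). The wild-type call was kept under 13 of 27 alternatives, with adjusted p between 0.0137 and 0.151. Pfkp shares 5.58% of its exon bases with Pitrm1 on the other strand, and without a stated strand setting reads there cannot be told apart. Pfkl, the liver form, had differences of 0.35 ± 0.21 (adjusted p = 0.239) and -0.10 ± 0.21 (adjusted p = 0.754), and Pfkm, the muscle form, of 0.05 ± 0.12 (adjusted p = 0.794) and -0.17 ± 0.12 (adjusted p = 0.291). Gpi1, glucose-6-phosphate isomerase, was likewise not called (0.18 ± 0.092, adjusted p = 0.153, and 0.23 ± 0.092, adjusted p = 0.0617).

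**Figure D3:**
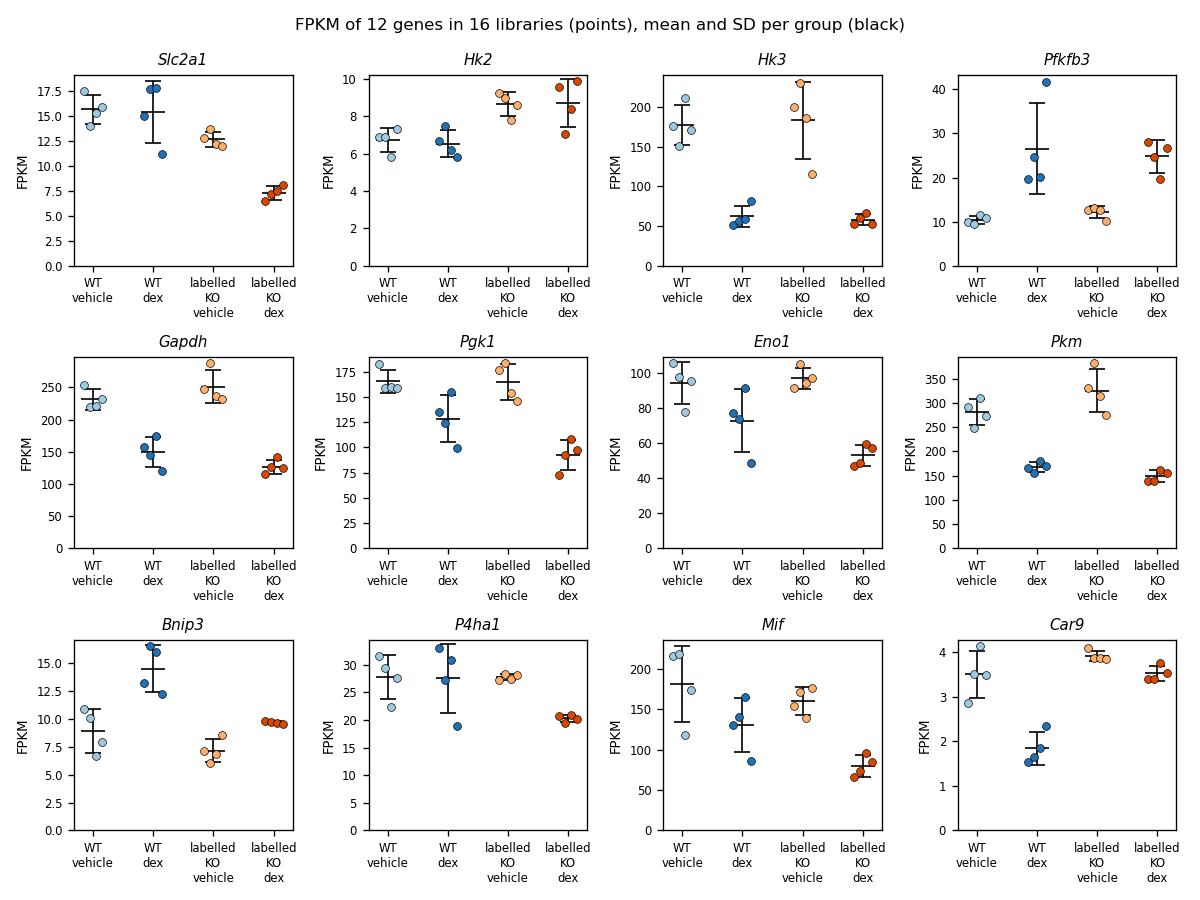
FPKM of 12 of the 33 genes in each of the 16 libraries (points), with the mean and SD of each group of 4 (black); WT is wild type and KO the label FOXO3-/-. Hk3, Gapdh and Pkm are lower with dexamethasone in both genotypes and Pfkfb3 is higher; for Slc2a1 and P4ha1 the 5 lowest libraries are the 4 labelled KO with dexamethasone and wild-type dexamethasone replicate 4.

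The 7 enzymes from triose phosphates to lactate moved in the same direction: 6 fell in wild type and 7 in labelled knockout. Their summed level was 1235 ± 71.5 and 830.6 ± 106.5 FPKM in wild type with vehicle and dexamethasone, and 1340 ± 162 and 697 ± 63.6 FPKM in labelled knockout (SD, n = 4). Pkm, pyruvate kinase (ENSMUSG00000032294, GRCm38 chromosome 9, 59656368 to 59679375), stood with vehicle at 293, 249, 311 and 273 FPKM in wild type and 331, 383, 315 and 274 in labelled knockout. With dexamethasone it stood at 166, 155, 180.1 and 170.3 and 138, 139.7, 162 and 155 FPKM. The treatments did not overlap in either genotype. Pkm fell in wild type (-0.74 ± 0.099, adjusted p = 6.17e-05) and in labelled knockout (-1.12 ± 0.099, adjusted p = 8.56e-07). A gene-level value does not separate its M1 and M2 splice forms, and 15.3% of its exon bases are shared with Gm49759 on the same strand, listed at up to 7.503 FPKM. Gapdh, glyceraldehyde-3-phosphate dehydrogenase and often used as a loading control, stood with vehicle at 254, 219, 222 and 231 FPKM in wild type and 248, 288, 237 and 232 in labelled knockout. Under dexamethasone it stood at 158, 145, 175 and 120.5 and 115, 126, 141 and 125 FPKM. It fell in wild type (-0.64 ± 0.11, adjusted p = 0.000452) and in labelled knockout (-0.98 ± 0.11, adjusted p = 6.78e-06). Near-identical copies of Gapdh carried 9.93% to 12.9% as many reads as the gene, and adding them changed neither call. Ldha stood at 205, 182, 194 and 197 FPKM and 130.0, 119.7, 149 and 104 FPKM in wild type with vehicle and dexamethasone. In labelled knockout it stood at 209, 242, 196 and 186 and 100.7, 102, 126 and 114. Its groups did not overlap, and it fell (-0.64 ± 0.11, adjusted p = 0.000578) in wild type and (-0.91 ± 0.11, adjusted p = 1.88e-05) in labelled knockout.

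Tpi1 fell in wild type from a mean of 135 to 94.7 FPKM (-0.52 ± 0.094, adjusted p = 0.00086) and from 147 to 84.3 in labelled knockout (-0.79 ± 0.094, adjusted p = 1.62e-05). Pgam1 fell from 133 to 91.6 FPKM (-0.53 ± 0.14, adjusted p = 0.00891) and from 147 to 81.5 (-0.82 ± 0.14, adjusted p = 0.000289). Tpi1 interconverts both triose phosphates, and Pgam1 shifts a phosphate ahead of enolase. Pgk1 stood at 183, 159.5, 160.3 and 159.5 FPKM with vehicle and 135, 124, 155 and 99.3 with dexamethasone in wild type. In labelled knockout it stood at 177, 184, 154 and 146 and 72.2, 92.3, 108 and 97.3. Pgk1 fell in labelled knockout (-0.84 ± 0.14, adjusted p = 0.000247); in wild type it passed narrowly (-0.38 ± 0.14, adjusted p = 0.0484), and the call was kept under 7 of 27 alternatives, with adjusted p between 0.019 and 0.234. Eno1, enolase, was the 1 of the 7 without a call in wild type (-0.40 ± 0.15, adjusted p = 0.0668), where replicate 4 with dexamethasone stood at 48.4 FPKM and the other 3 at 73.4 to 91.5. Eno1 fell in labelled knockout (-0.87 ± 0.15, adjusted p = 0.0005), from 91.4, 105, 93.97 and 97.3 to 46.6, 48.8, 59.2 and 56.8 FPKM. Its 3 near-identical copies carried 42.5% to 50.4% as many reads as the gene, so its level is uncertain. Among the aldolases, Aldoa, the main form at over 98% of the family's FPKM in every library, fell in labelled knockout (-0.45 ± 0.085, adjusted p = 0.000756), with -0.17 ± 0.085 (adjusted p = 0.149) in wild type. Aldoc, the brain form, fell in wild type, from 3.21 ± 0.564 to 0.954 ± 0.262 FPKM, and in labelled knockout, from 5.79 ± 2.10 to 1.30 ± 0.500 (SD, n = 4), with adjusted p of 0.00169 and 8.8e-05.

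At the exit from glycolysis stand 2 lactate carriers and 3 genes of pyruvate dehydrogenase control, of which 1 rose in wild type and 2 fell in labelled knockout. Slc16a3, the lactate exporter MCT4, fell in labelled knockout (-0.54 ± 0.18, adjusted p = 0.0283), with -0.18 ± 0.18 (adjusted p = 0.485) in wild type. Slc16a1, MCT1, had differences of -0.23 ± 0.095 (adjusted p = 0.0879) and -0.20 ± 0.095 (adjusted p = 0.11). Pdk1 and Pdk3 are kinases that switch pyruvate dehydrogenase off. Pdk3 rose in wild type (0.40 ± 0.093, adjusted p = 0.00475), from 5.39, 5.44, 5.61 and 5.86 to 8.83, 7.57, 8.08 and 6.44 FPKM, and its difference in labelled knockout was 0.22 ± 0.093 (adjusted p = 0.0756). Pdk1, which HIFs raise, fell in labelled knockout (-0.44 ± 0.13, adjusted p = 0.0142), with -0.16 ± 0.13 (adjusted p = 0.384) in wild type. Pdha1, the catalytic subunit they act on, had 0.07 ± 0.15 (adjusted p = 0.762) and -0.08 ± 0.15 (adjusted p = 0.711). The neighbouring list of 20 genes of pyruvate handling and gluconeogenesis held 16 tested genes, of which 3 rose and none fell in wild type and 2 rose and none fell in labelled knockout. Pdk2 rose to 13.9 ± 2.06 FPKM from 7.699 ± 0.866 in wild type, and to 10.6 ± 0.2103 from 6.58 ± 0.414 in labelled knockout. Txnip, which restrains glucose uptake, rose from 247 ± 7.12 to 312 ± 27.1 and from 267 ± 27.1 to 365 ± 19.8 FPKM.

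Other routes of glucose were examined as lists. Of 9 pentose phosphate genes 1 rose and 1 fell in wild type, and 1 fell in labelled knockout: H6pd, the enzyme of the endoplasmic reticulum, rose in wild type from 18.2 ± 3.42 to 29.6 ± 8.47 FPKM. Of 10 glycogen genes 1 fell in each genotype, Gyg, the primer of glycogen, in wild type (from 102 ± 17.9 to 62.05 ± 17.01 FPKM) and Pgm1 in labelled knockout (from 16.9 ± 1.54 to 12.9 ± 1.46 FPKM). The remaining glycolysis genes outside the 33 were mixed: of 11 tested, 4 rose and 3 fell in wild type and 5 rose and 4 fell in labelled knockout. Eno3 and Adpgk, an ADP-dependent glucokinase, were among those that rose in wild type, with log2 differences of 0.54 ± 0.10 and 0.32 ± 0.062 (adjusted p = 0.00126 and 0.00128).

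Among the 9 other hypoxia genes calls went both ways. Hif1a, the oxygen-controlled alpha subunit, stood between 8.82 and 16.2 FPKM over all libraries and was called in neither genotype (-0.09 ± 0.15, adjusted p = 0.68, and -0.19 ± 0.15, adjusted p = 0.335). Bnip3 (ENSMUSG00000078566, GRCm38 chromosome 7, 138890836 to 138909519) stood with vehicle at 10.9, 10.1, 6.67 and 7.94 FPKM in wild type and 7.098, 6.05, 6.84 and 8.52 in labelled knockout. With dexamethasone it stood at 13.2, 16.5, 16.03 and 12.2 and 9.83, 9.696, 9.598 and 9.56 FPKM. It was higher in every dexamethasone library than in every vehicle library of the same genotype, and it rose (0.66 ± 0.13, adjusted p = 0.00176) in wild type and (0.40 ± 0.13, adjusted p = 0.0257) in labelled knockout. The call in labelled knockout was lost under 6 of 27 alternatives, with no filter and without replicate 1, 2 or 3 of its vehicle or replicate 1 or 2 of its dexamethasone libraries, with adjusted p up to 0.0835. Its relative Bnip3l was called in neither (-0.07 ± 0.12, adjusted p = 0.692, and -0.02 ± 0.12, adjusted p = 0.928). Of the prolyl hydroxylases, Egln1 passed narrowly as higher in wild type (0.21 ± 0.076, adjusted p = 0.045), a call kept under 11 of 27 alternatives with adjusted p between 0.0135 and 0.201, and Egln3 was called in neither (0.44 ± 0.22, adjusted p = 0.159, and -0.28 ± 0.22, adjusted p = 0.357).

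Car9, a membrane carbonic anhydrase that helps export acid and a classic HIF target, was the 1 gene of the 9 that fell in wild type. Car9 (ENSMUSG00000028463, GRCm38 chromosome 4, 43506966 to 43513729) stood with vehicle at 2.86, 3.52, 4.15 and 3.48 FPKM in wild type and 4.08, 3.88, 3.87 and 3.84 in labelled knockout. With dexamethasone it stood at 1.53, 1.64, 1.84 and 2.35 and 3.395, 3.396, 3.76 and 3.54 FPKM. It fell in wild type (-0.66 ± 0.092, adjusted p = 8.69e-05), and the difference in labelled knockout was -0.12 ± 0.092 (adjusted p = 0.322), with no overlap between treatments in either. An antisense gene, Gm12454, shares 9.29% of the exon bases of Car9 and reached 2.80 FPKM, so part of these low values cannot be assigned to a strand. P4ha1, a collagen prolyl hydroxylase, fell in labelled knockout (-0.43 ± 0.14, adjusted p = 0.0211). That call was lost under 3 of 27 alternatives, among them median-ratio scaling and quantile normalization. Mif, a cytokine that HIFs raise, also fell in labelled knockout (-1.003 ± 0.21, adjusted p = 0.0017). In wild type P4ha1 had -0.03 ± 0.14 (adjusted p = 0.899) and Mif -0.47 ± 0.21 (adjusted p = 0.11). Vegfa, the vessel growth factor, was called in neither (-0.48 ± 0.59, adjusted p = 0.583, and -1.22 ± 0.59, adjusted p = 0.118).

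Of 10 tested regulators of the HIFs, 5 rose and 1 fell in wild type, and 3 rose, 1 fell and 6 were not called in labelled knockout. The shares of all genes that rose were those given above, 11.9% and 15.0%. Hif3a, an alpha subunit with forms that oppose the others, was listed at 0 in all 4 wild-type vehicle libraries and stood at 3.01 ± 0.332 FPKM with dexamethasone. In labelled knockout it went from 0.027 ± 0.022 to 2.66 ± 0.445 FPKM. It passed the filter through dexamethasone libraries alone, which set the direction of its call, so no p is given, although the counts of regulators include it. Cited2, which competes with HIF alpha for its coactivators, rose from 61.5 ± 5.805 to 160.0 ± 16.4 FPKM and from 53.2 ± 6.84 to 135 ± 8.28. Arnt, the constant HIF partner, rose from 9.46 ± 0.261 to 13.3 ± 0.7902 and from 10.4 ± 0.586 to 13.6 ± 1.48 FPKM. Of 19 further hypoxia targets 6 rose and 2 fell in wild type and 5 rose and 4 fell in labelled knockout. Ddit4, an mTORC1 inhibitor that glucocorticoids are known to raise, rose from 10.4 ± 6.47 to 213 ± 33.6 and from 4.04 ± 3.71 to 339.9 ± 28.04 FPKM. Hmox1, heme oxygenase, rose from 302 ± 25.3 to 821 ± 62.3 and from 269 ± 49.9 to 556 ± 65.3 FPKM. Bhlhe40, a transcriptional repressor, fell in both genotypes, from 12.8 ± 3.42 to 2.81 ± 0.549 (adjusted p = 0.000262) and from 17.4 ± 7.23 to 1.36 ± 0.569 FPKM (adjusted p = 3e-06).

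With vehicle the genotype label made no called difference in the 33 genes. None of 33 passed in limma, against 4.68% of all genes tested; 4 had an unadjusted p under 0.05, and limma voom on recovered reads called 0. Of the calls over all genes 72.1% were higher, and 60.4% or 61.6% after median-ratio or quantile scaling. The nearest was Pfkfb4, higher in labelled knockout by 0.21 ± 0.058 (SE, log2; adjusted p = 0.0591), with no overlap between groups. Without the 3 libraries apart in Col1a1, 12 of the 33 were called, 6 in each direction, in a fit that called 34.0% of all genes.

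With dexamethasone the label did separate genes: 11 of the 33 were lower and 3 higher in labelled knockout than in wild type, against 12.4% and 14.3% of all genes tested. Of the calls over all genes 53.7% were higher, and 47.1% or 59.1% after median-ratio or quantile scaling. Of the 24 glycolysis genes 6 were lower and 2 higher, and of the 9 other hypoxia genes 5 were lower and 1 higher. Slc2a1, with the values above, was lower (-0.97 ± 0.12, adjusted p = 0.000136) with no overlap. Car9 was higher (0.68 ± 0.092, adjusted p = 0.000272), with 3.40 FPKM as its lowest labelled knockout library and 2.35 as its highest wild-type one. These were the 2 of the 14 genes that kept their call under all 27 alternatives. Hk2 was higher (0.36 ± 0.10, adjusted p = 0.0184), with 9.56, 7.03, 8.38 and 9.88 FPKM in labelled knockout against 6.68, 7.47, 6.17 and 5.79 in wild type, and 1 labelled knockout library lay within the wild-type range. Pfkfb4 was higher (0.24 ± 0.058, adjusted p = 0.0093). Egln3, one of the 11 and of the 5, stood at 0.257, 0.372, 0.651 and 0.435 FPKM in labelled knockout against 1.96, 3.02, 2.75 and 0.823 in wild type. It reached 1 FPKM in 6 wild-type libraries and in 0 labelled knockout ones, so the filter set the direction of its call, which is not counted here as support; in the fit with no filter the difference was -1.08 ± 0.23 (adjusted p = 0.0127). Vegfa (ENSMUSG00000023951, GRCm38 chromosome 17, 46016993 to 46032369) stood at 0.213, 0.3895, 1.11 and 1.19 FPKM in labelled knockout and 7.42, 6.74, 7.21 and 1.39 in wild type (-1.84 ± 0.59, adjusted p = 0.0348). Also lower were Pfkl (-0.61 ± 0.21, adjusted p = 0.0472), Slc16a3 (-0.67 ± 0.18, adjusted p = 0.0174), Mif (-0.68 ± 0.21, adjusted p = 0.0306) and Bnip3 (-0.53 ± 0.13, adjusted p = 0.0118). Pgk1, P4ha1, Pdk3 and Aldoa were lower by 0.26 to 0.47 on the log2 scale, with adjusted p between 0.0243 and 0.0479. The count of 14 changed when single libraries were left out. The count over all genes, 26.7% in the fit reported, changed in such fits as well, and its range is given at the end. The count of the 33 was 5 without wild-type dexamethasone replicate 3 or labelled knockout dexamethasone replicate 1. It was 6 without wild-type replicate 1 or labelled knockout replicate 2. It was 9 without wild-type replicate 2 or labelled knockout replicate 3, and 20 without wild-type replicate 4.

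Fibroblast markers were also lower in labelled knockout with dexamethasone, 8 of 10 tested, and none was higher. Of 3 endothelial markers, Cdh5 (-2.09 ± 0.61, adjusted p = 0.024, and 0.0527 with no filter) and Kdr (-0.45 ± 0.14, adjusted p = 0.0287) were lower. Cdh5 reached 1 FPKM in 3 wild-type libraries of each treatment, in 1 labelled knockout library with vehicle and in 0 with dexamethasone. It passed the filter mainly through wild type, so its call is not counted as support. Kdr stayed under 1 FPKM in all dexamethasone libraries, with means of 0.606 in wild type and 0.169 in labelled knockout. Of 3 fat cell markers, Adipoq was listed at 0 in all 4 labelled knockout libraries with dexamethasone. In wild type it stood at 1.21 to 16.8 FPKM with dexamethasone and at 0.084 to 1.99 FPKM with vehicle. It reached 1 FPKM in 4 wild-type libraries with dexamethasone and in 1 of each vehicle group, so no p is given. Fabp4 was not called by label with dexamethasone, with means of 19.5 FPKM in wild type and 14.8 in labelled knockout. Plin1 reached at most 0.468 FPKM in any library. Of the 10 macrophage markers 5 were higher and none lower. Lyz2, 1 of the 5, had 0.39 ± 0.10 (adjusted p = 0.0158), and 0.39 ± 0.58 (adjusted p = 0.747) with no filter. Fcgr1 and Itgam stayed called with no filter (adjusted p = 0.0229 and 0.0319). Their SE hardly changed, from 0.167 to 0.170 and from 0.254 to 0.260, unlike that of Lyz2, and the reason was not tested. The part of these lists in the genotype differences of the 33 genes was not tested. With dexamethasone Col1a1 stood at 355.5, 159, 286 and 19.1 FPKM in wild type and at 1.18, 1.20, 14.95 and 25.5 in labelled knockout. Wild-type replicate 4 alone lay within the labelled knockout range. Label and stroma therefore cannot be told apart by the fits that follow, which only show how the values move. With log2(Col1a1 FPKM + 1) of each library as a covariate, 4 of the 33 stayed called, against 7.41% of all genes tested. They were Slc2a1 at -0.84 ± 0.14, Car9 at 0.57 ± 0.11, Hk2 at 0.50 ± 0.12 and Aldoa at -0.36 ± 0.10. The Vegfa difference was then -0.11 ± 0.20, that of Pfkl -0.08 ± 0.16, and that of Mif -0.22 ± 0.19. Among only the 9 libraries under 50 FPKM of Col1a1, where each wild-type group is 1 library that is assumed to vary like the other groups, 3 of the 33 were called against 3.35% of all genes. They were Slc2a1 (-0.55 ± 0.12), Car9 (0.43 ± 0.091) and Pdha1 (0.40 ± 0.080). Without the 3 libraries apart in Col1a1, 23 of the 33 were called, 19 lower and 4 higher, against 44.3% of all genes.

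**Figure D4:**
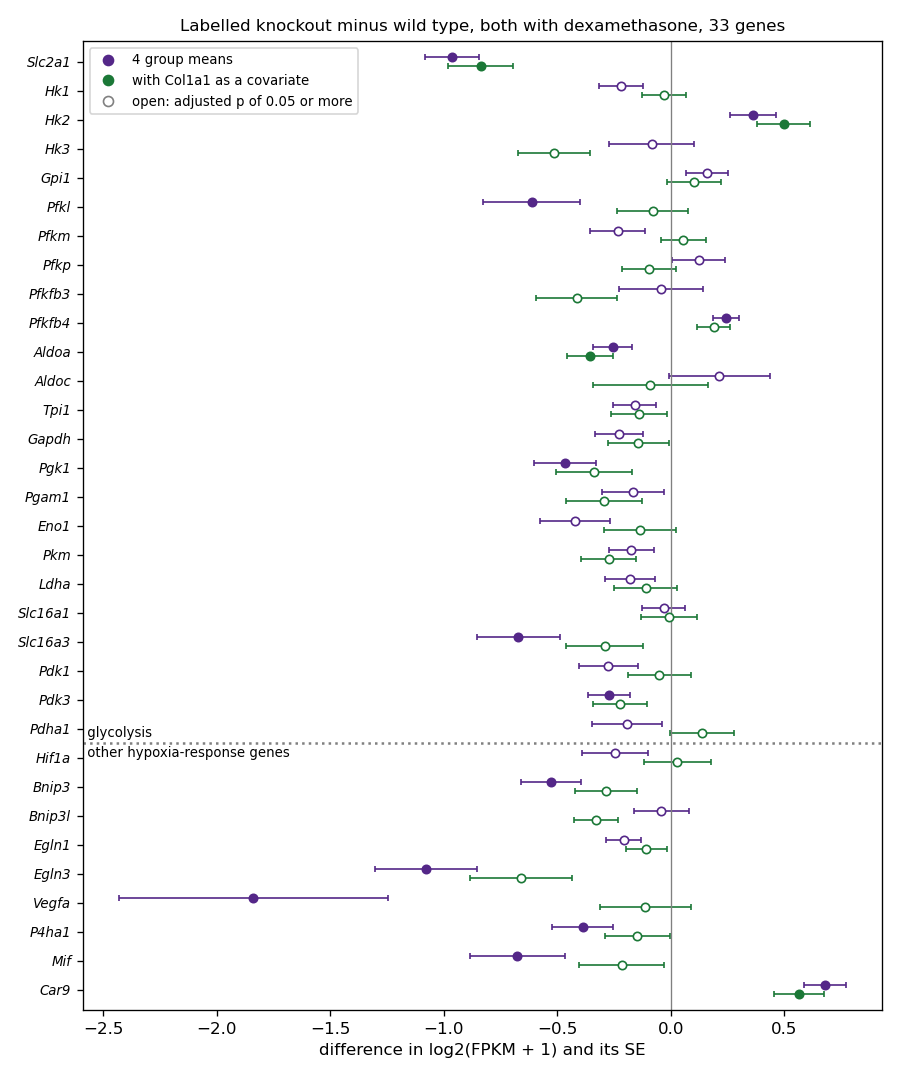
Difference between labelled knockout and wild type, both with dexamethasone, in log2(FPKM + 1) with its SE, from the fit of 4 group means (purple) and with Col1a1 as a covariate (green); filled points passed an adjusted p of 0.05. Slc2a1 and Aldoa stay called on the left and Hk2 and Car9 on the right, while Vegfa moves from -1.84 to -0.11.

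Within groups, 11 of the 33 genes rose with Col1a1 and 4 fell with it, against 11.7% and 13.5% of all genes tested. The slope is the change in log2(FPKM + 1) per unit of log2(Col1a1 FPKM + 1). Vegfa had the steepest, 0.40 ± 0.029 (SE; adjusted p = 1.68e-07). It stood at 10.1, 11.2, 1.89 and 11.3 FPKM in wild-type vehicle and 2.46, 1.31, 1.28 and 11.6 in labelled knockout vehicle. The low library of the first group is the one low in Col1a1, and the high library of the second is the one high in it. Positive slopes followed for Pfkl (0.12 ± 0.023), Mif (0.11 ± 0.027), Egln3 (0.10 ± 0.033) and Slc16a3 (0.09 ± 0.025). Hk3 (-0.10 ± 0.023), Pfkfb3 (-0.09 ± 0.026), Bnip3l (-0.07 ± 0.014) and Pfkp (-0.05 ± 0.017) had negative slopes. Of the 7 enzymes from Tpi1 to Ldha, Eno1 alone was called (0.07 ± 0.023, adjusted p = 0.0448), and the slope of Slc2a1 was 0.03 ± 0.021 (adjusted p = 0.316). Without the 3 libraries apart in Col1a1, Vegfa was the 1 gene of 33 with a called slope, and those of Hk3 and Bnip3 changed sign. The count of 15 was 7 without wild-type vehicle replicate 3 or without wild-type dexamethasone replicate 4. The share of all genes with a called slope in those fits is not given here.

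**Figure D5:**
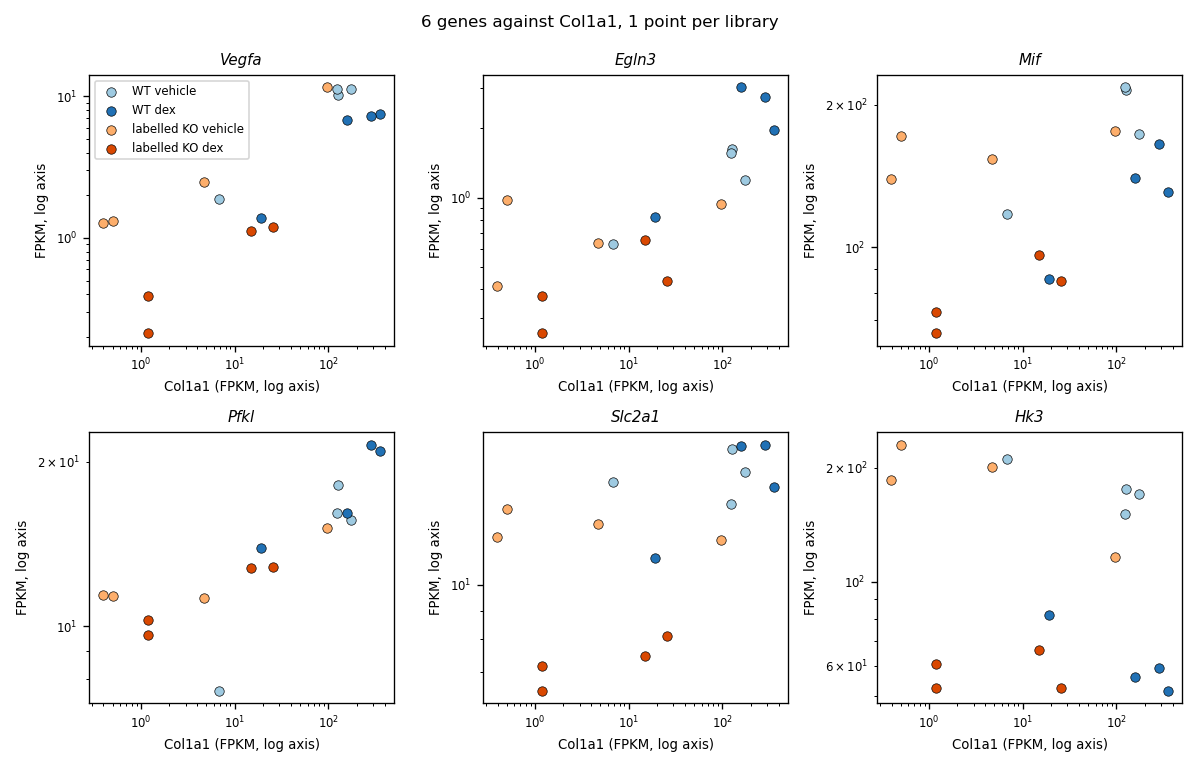
FPKM of 6 of the 33 genes against Col1a1 FPKM, both on log axes, with 1 point per library coloured by group. Vegfa is low in wild-type vehicle replicate 3 and wild-type dexamethasone replicate 4 and high in labelled knockout vehicle replicate 4, as Col1a1 is, whereas Hk3 separates by treatment, with 51.6 to 81.8 FPKM with dexamethasone and 116 to 230.2 with vehicle, and Slc2a1 is lowest in the 4 labelled knockout dexamethasone libraries.

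The interaction, the difference between both dexamethasone responses, was called for none of the 33 genes in limma and for 0.129% of all genes tested. Of the 33, 10 had an unadjusted p under 0.05, and limma voom called 0. Of the calls over all genes 46.7% were positive, and 58.8% after median-ratio scaling. The difference was negative for 27 of the 33 and for 6264 of all 11654 genes tested, with medians of -0.27 and -0.02. The 33 genes were measured in the same libraries, so their signs are not independent. A negative value means a larger fall, a smaller rise, or a fall in place of a rise in labelled knockout. The nearest were Car9 0.54 ± 0.13 (adjusted p = 0.135) and Slc2a1 -0.68 ± 0.17 (adjusted p = 0.139). For the 7 enzymes from Tpi1 to Ldha it ran from -0.47 to -0.27. With wild-type dexamethasone replicate 4 left out, 4 of the 33 were called against 2.83% of all genes. Without the 3 libraries apart in Col1a1, 5 were called against 6.22% of all genes: Slc2a1 (-0.83 ± 0.13, adjusted p = 0.00392), Car9 (0.55 ± 0.11, adjusted p = 0.00978), P4ha1 (-0.46 ± 0.099, adjusted p = 0.0167), Eno1 (-0.56 ± 0.14, adjusted p = 0.0365) and Pkm (-0.50 ± 0.13, adjusted p = 0.0403). With Col1a1 as a covariate none was called.

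Several related hypoxia genes outside the 33 also differed by label with dexamethasone: of 19 tested 9 were lower and 1 higher. Plod1, a collagen-modifying hydroxylase, was lower in labelled knockout in both treatments, at 15.5 ± 2.02 against 38.9 ± 5.303 FPKM with vehicle (adjusted p = 1.08e-05) and at 24.2 ± 0.509 against 66.7 ± 8.41 with dexamethasone (adjusted p = 2.64e-06). Mxi1, a MYC antagonist, was lower in both, at 3.097 ± 0.364 against 5.66 ± 0.223 (adjusted p = 0.000253) and 4.23 ± 0.561 against 9.22 ± 0.8203 FPKM (adjusted p = 6.74e-06). Tfrc, the transferrin receptor, was higher in both, at 239 ± 94.2 against 72.5 ± 29.6 (adjusted p = 0.00693) and 72.5 ± 12.1 against 23.2 ± 3.58 FPKM (adjusted p = 0.00316). Epas1, the HIF2 alpha subunit, was lower with dexamethasone at 3.81 ± 0.2500 against 19.2 ± 10.7 FPKM (adjusted p = 0.00152), and it also rose with Col1a1 within groups (slope 0.14 ± 0.048). Pdk4, 1.46 ± 1.504 against 25.9 ± 15.7 FPKM, was lower as well (adjusted p = 0.0133) and had a Col1a1 slope of 0.54 ± 0.052.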

How the data were processed

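The values are FPKM per gene and library as deposited by the authors; per the submitters' processing notes the tools were TopHat2 2.0.12, Bowtie2 2.2.3, HTSeq 0.6.1 and DESeq2, and the builds GRCm38 and mm10. The sources used here do not give their settings, strand handling or annotation release. Symbols were matched with GENCODE mouse release 21 (54495 of 54532 identifiers). The 33 genes, the gene lists and the alternatives were chosen with earlier results of these data known; all 33 are described, and of each other list at most 4 called genes per comparison are named. FPKM values came out as whole reads, within 0.05 reads, for 96.5% of positive values. The 11654 genes that reached 1 FPKM in 4 or more of 16 libraries were tested with limma 3.58.1 in R 4.3.3, with trend, on log2(FPKM + 1), which understates changes of low genes. One fit of 4 group means gave both dexamethasone effects, both genotype effects and the interaction, two-sided, with Benjamini-Hochberg adjustment within each and a threshold of 0.05. Differences are log2 with their SE, and the slope on log2(Col1a1 FPKM + 1) came from the same fit with that term. Alternatives covered the pseudocount, the filter, 2 scalings, the libraries in the fit, the replicate number, Col1a1, limma voom on recovered reads and near-identical copies found with blastn 2.17.0 (at least 95% identity). Scripts were tested on simulated data.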

Additional observations from a re-analysis of the deposited data

Results flagged for a closer look

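In 7 of 132 groups of 4 libraries, 1 library lay far from the other 3, where chance gives about 1 in 20 groups. Vegfa accounted for 3 of them: 1.892 FPKM in wild-type vehicle replicate 3 against 10.12 to 11.31 in the others, 1.385 FPKM in wild-type dexamethasone replicate 4 against 6.735 to 7.418, and 11.57 FPKM in labelled knockout vehicle replicate 4 against 1.277 to 2.465. These are the same 3 libraries that lay apart in Col1a1. In that last library Pfkl stood at 15.11 FPKM against 11.26 to 11.42. Pfkfb4 stood at 7.129 FPKM in wild-type dexamethasone replicate 4 against 6.129 to 6.138. Pgk1 stood at 183.2 FPKM in wild-type vehicle replicate 1 against 159.5 to 160.3, and Car9 at 4.081 FPKM in labelled knockout vehicle replicate 1 against 3.842 to 3.877.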

How the results depend on the processing

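Of 5214 values of the 33 genes under alternatives, 4683 kept their direction and side of the threshold, 267 lost a call and 89 gained one. A further 171 changed sign with no call in either fit, and 4 reversed with a call in at least 1 fit. The reversed values were the slopes of Hk3 (0.0011) and Bnip3 (-0.0135) without the 3 libraries apart in Col1a1, and the genotype differences with dexamethasone of Pdha1 (0.3958) and P4ha1 (0.1051) among libraries under 50 FPKM of Col1a1; the cause was not tested. Dexamethasone calls held under all 27 alternatives for 8 of 15 genes in wild type and 16 of 20 in labelled knockout; Bnip3, Slc16a3, P4ha1 and Pdk1 kept theirs in labelled knockout under 21, 22, 24 and 26. Genotype calls with dexamethasone held for 2 of 14, and Col1a1 slopes for 1 of 15 under 24 alternatives.

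Counts over all genes moved as follows. Under 50 FPKM of Col1a1, where each wild-type group is 1 library assumed to vary like the others, they were 2155 for dexamethasone in wild type (3508 in the fit reported), 60 for genotype with vehicle (545), 390 for genotype with dexamethasone (3114) and 1 for the interaction (15). With the Col1a1 covariate genotype gave 323 and 863 and the interaction 67, and without the 3 libraries 3958, 5158 and 725. Genotype with vehicle gave 244 when only those groups were fitted. The interaction gave 6 with no filter and 4 with voom. Of the 33 genes, genotype with vehicle gave 1 with the covariate and 12 without the 3 libraries. Genotype with dexamethasone gave 7 with no filter, 4 with the covariate, 23 without the 3 libraries and 3 under 50 FPKM. The interaction gave 5 without the 3 libraries, and the slope 8 with no filter and 1 without the 3 libraries.

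Leaving out 1 library at a time gave 278 to 1623 genes and 0 to 1 of the 33 for genotype with vehicle, 1517 to 4070 and 5 to 20 for genotype with dexamethasone, 2 to 330 and 0 to 4 for the interaction, and 7 to 14 of the 33 for the slope. Same-numbered libraries correlated between -0.763 and 0.732 in their deviations from the group means over all genes tested. These deviations also carry the 3 libraries apart in Col1a1, so the correlations cannot decide whether the numbers pair libraries. As a block the replicate numbers gave 8 of the 33 for genotype with dexamethasone and 1 gene in all for the interaction.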
